A study of Mus musculus with 8 samples.

Results

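Collagens are the structural proteins of the extracellular matrix, and 44 collagen genes were measured among the 19938 genes compared on these arrays. Every gene whose symbol reads Col, a number, a and a number was taken, and a gene with several probe sets is represented by the brightest on average. The cells were primary smooth muscle cells from the aorta of C57Bl6 mice, used at passage 3 to 4. The 4 control samples are of cells kept in DMEM and 10% fetal calf serum over 24 h, and the 4 jasplakinolide samples are of cells in the same medium that also received 100 nM jasplakinolide, a cell-permeable compound that binds and stabilises actin filaments. Control and jasplakinolide samples carried the replicate numbers 1 to 4. The labels do not say whether samples of a group came from separate animals or cultures, so the p-values cover only how these samples vary, and that variation may be technical.

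A collagen molecule is a triple helix of 3 chains, which are made by separate genes. Fibrillar collagens build the tensile fibres of the vessel wall, basement membrane collagens form the sheet around each smooth muscle cell, and the fibril-associated collagens (FACIT, with interrupted triple helices) sit on the surface of fibres. Chains are hydroxylated and folded in the endoplasmic reticulum, trimmed outside the cell and then cross-linked. In the aorta, smooth muscle cells are a main source of collagen, and cultured cells with less contractile protein are known to make more matrix.

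All levels are log2 values after robust multi-array averaging (RMA), so a difference of 1 is a 2-fold change, and signals of different probe sets cannot be compared as amounts of RNA. The medians of the 8 arrays over all probe sets lay between 7.30 and 7.39. Of 10 markers of contractile smooth muscle, 7 rose with jasplakinolide by limma (beside 0.436% of all genes), and the mean level of the 10 was 10.04 to 10.19 in the control samples and 10.57 to 10.81 in the jasplakinolide samples. Of 10 endothelial markers, 5 (Cdh5, Emcn, Eng, Pecam1 and Tie1) lay in the brightest 10% of all genes, which the label of aortic smooth muscle cells does not describe. Their list had a mean level of 10.65 to 10.72 in the controls and 10.45 to 10.56 with jasplakinolide, and the means of 9 of the 10 lay lower. Of the 10, 1 fell, Robo4 (beside 0.336% of all genes), or 3 with the replicate number as a block, Robo4, Kdr and Tek (beside 1.08%). The other marker lists had overlapping ranges in both groups: 6.95 to 7.17 against 6.92 to 6.98 for 9 markers of adventitial fibroblasts, 7.74 to 7.85 against 7.75 to 7.84 for 9 of macrophages, 7.43 to 7.62 against 7.47 to 7.73 for 8 of chondrocytes and osteoblasts, 6.15 to 6.40 against 6.17 to 6.42 for 4 of Schwann cells, and 6.95 to 7.08 against 6.91 to 7.05 for 6 of adipocytes. In such bulk samples fewer cells of a type and less RNA per cell cannot be told apart, and the part of endothelial RNA in the collagen values was not tested.

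The start regions of 3 members are shown, because Col18a1 and Col8a1 are among the genes whose groups were apart and Col1a2, a chain of the most abundant fibrillar collagen, is one whose groups were not. Col12a1 had no matched RefSeq window and could not be shown. Col4a1 and Col4a2, whose groups were also apart, were not picked. They are the 250 bases before the RefSeq start on mouse build GRCm38.p6, written 5′ to 3′ on the gene's strand, with every match to a searched motif in capitals. Col18a1 has 2 RefSeq starts, at the ends of chr10:77166531-77166780 and chr10:77113706-77113955 (both minus strand); Col8a1 lies at chr16:57754738-57754987 (minus strand) and Col1a2 at chr6:4505368-4505617 (plus strand).
Col18a1, first start: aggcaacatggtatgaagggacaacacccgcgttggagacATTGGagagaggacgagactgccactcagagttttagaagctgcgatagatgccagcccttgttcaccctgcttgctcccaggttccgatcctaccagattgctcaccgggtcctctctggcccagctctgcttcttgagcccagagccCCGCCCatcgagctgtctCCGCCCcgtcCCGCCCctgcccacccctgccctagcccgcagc
Col18a1, second start: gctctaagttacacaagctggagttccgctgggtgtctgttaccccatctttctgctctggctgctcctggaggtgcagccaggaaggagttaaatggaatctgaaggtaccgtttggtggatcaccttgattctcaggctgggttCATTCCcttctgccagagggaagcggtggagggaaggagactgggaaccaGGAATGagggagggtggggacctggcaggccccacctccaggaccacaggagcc
Col8a1: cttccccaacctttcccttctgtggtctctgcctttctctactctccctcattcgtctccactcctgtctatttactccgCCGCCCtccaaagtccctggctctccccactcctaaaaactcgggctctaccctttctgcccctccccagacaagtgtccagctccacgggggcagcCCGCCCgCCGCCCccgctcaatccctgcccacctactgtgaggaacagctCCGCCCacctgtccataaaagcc
Col1a2: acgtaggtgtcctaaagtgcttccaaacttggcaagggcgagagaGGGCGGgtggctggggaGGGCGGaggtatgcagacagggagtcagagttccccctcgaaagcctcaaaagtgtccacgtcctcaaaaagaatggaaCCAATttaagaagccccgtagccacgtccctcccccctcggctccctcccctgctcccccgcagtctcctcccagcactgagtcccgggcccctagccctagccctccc
Both strands were searched. The motifs were the TATA box (letters TATAAA), the CCAAT box, the GC box of Sp1 factors (letters GGGCGG), the AP-1 site (letters TGANTCA), the TEAD site (letters GGAATG) and the CArG box of serum response factor. None of the matches shown share a base. The first Col18a1 window held 1 CCAAT match, 210 bases before the start, and 3 GGGCGG matches, 61, 43 and 33 bases before it, all on the opposite strand. The second held GGAATG 104 and 54 bases before its start. Col8a1 held 4 GGGCGG matches, 170, 73, 66 and 23 bases before its start, and Col1a2 held CCAAT at 109 and GGGCGG at 205 and 188 bases. RefSeq windows were matched for 35 of the 44 genes (38 windows). GGGCGG was in 22 of the 38 (57.9%, beside 32.7% of all 32851 windows of the same length) and CCAAT in 13 (34.2%, beside 33.8%). TATAAA was in 5 (13.2%, beside 12.4%) and GGAATG in 4 (10.5%, beside 12.6%). TGANTCA was in 1 (2.63%, beside 6.75%) and the CArG box in 1 (2.63%, beside 1.47%). A match is a run of letters and not a shown binding site.

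Of the 44 collagen genes, 1 rose, Col12a1, and none fell, by limma with Benjamini-Hochberg adjustment over all genes (adjusted p under 0.05). That is 2.27% of the collagens, beside 0.772% of all genes tested, of which 87 (0.436%) rose and 67 (0.336%) fell. With the replicate number as a block, limma called 2 collagens, Col12a1 and Col18a1, both higher, which is 4.55% beside 1.89% of all genes (0.813% higher and 1.08% lower). At an unadjusted p under 0.05 there were 3, with Col8a1 as the third, or 6.82% beside 8.87% of all genes. In 5 of the 44 every jasplakinolide sample was above every control sample (11.4%, beside 3.62% of all genes in that direction), and in none was every one below (3.29% of all genes). These 5 were Col12a1, Col18a1, Col8a1, Col4a1 and Col4a2, and they were also the 5 collagens in which the treatment held over 50% of the sum of squares of the 8 values (9.63% of all genes).

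The differences were small in most of the family. They ran from -0.17 for Col10a1 to 0.41 for Col18a1 on the log2 scale, and in the 42 collagens other than Col12a1 and Col18a1 they were under 0.2 in either direction. The 95% intervals of these 42 reached from -0.51 to 0.41 at the widest. The median difference over the 44 was 0.06, beside 0.01 over all genes, and 34 of 44 lay above 0 (77.3%, beside 56.4% of all genes). Among the dimmer 50% of all genes, 18 of 19 collagens lay above 0 (94.7%, beside 62.6% of all genes there). Among the brighter 50% it was 16 of 25 (64%, beside 50.1%). No collagen of the dimmer 50% was called in either fit. The count of 34 varied with the arrays used. Without jasplakinolide 4, 17 of 44 lay above 0 and the median was -0.01, without control 3 it was 25 with a median of 0.02, and without control 1 it was 29 with a median of 0.01. Leaving out 1 of the other arrays gave 32 to 39, and leaving out control 2 and jasplakinolide 4 together gave 34 with a median of 0.05. With the median signal of olfactory receptor genes, a measure of weak signals on each array, as a covariate, 18 of 44 lay above 0 and the median was -0.02. With limma's array weights 23 did, with a median of 0.003.

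**Figure D1:**
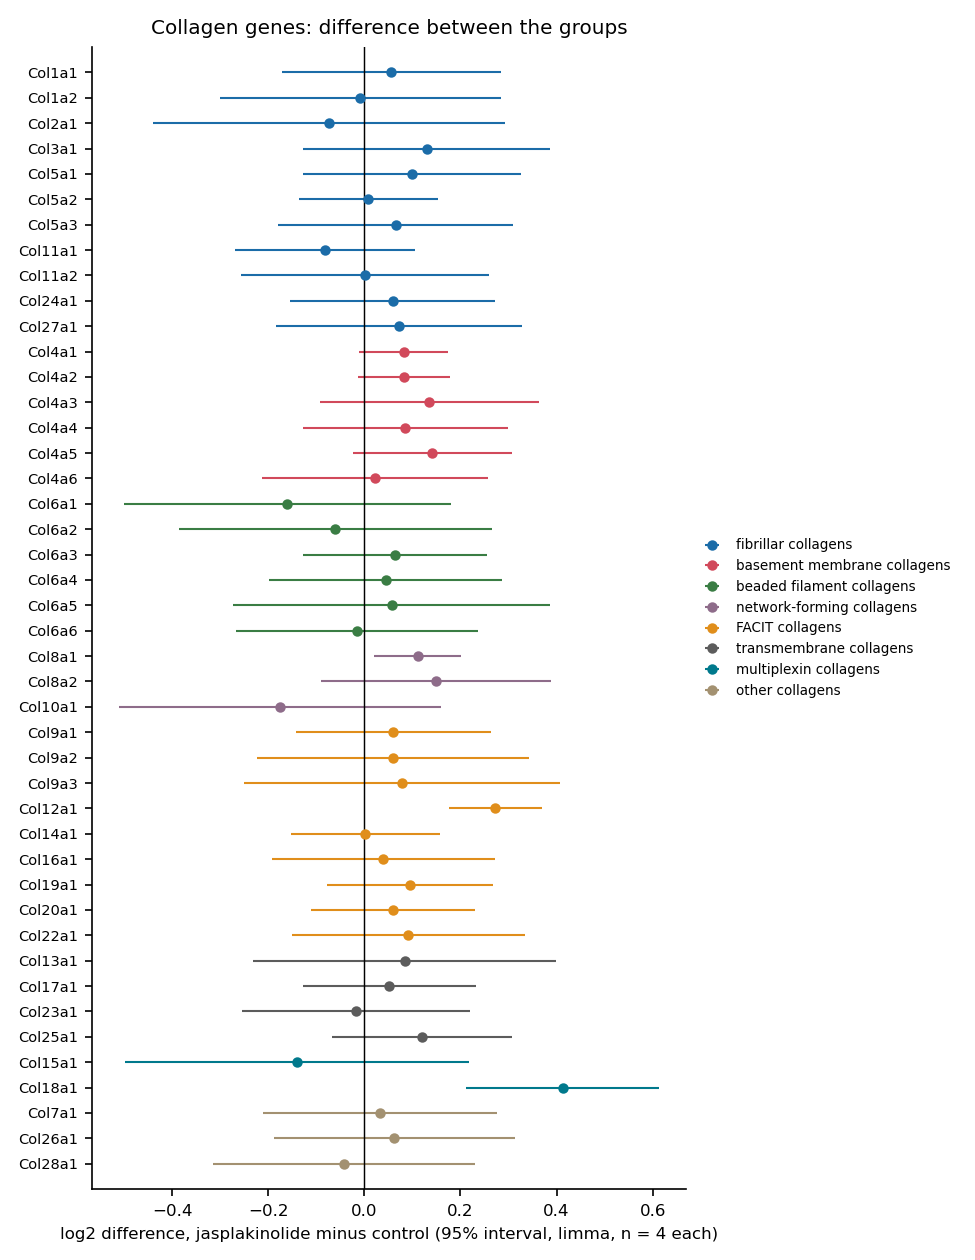
Log2 difference between jasplakinolide and control samples (x axis) for each of the 44 collagen genes (y axis), with 95% intervals from limma and 4 samples per group; colours mark the structural class. Only the intervals of Col12a1, Col18a1 and Col8a1 lie wholly above 0.

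Col12a1 encodes the chain of type XII collagen, a fibril-associated collagen that bridges fibrils to other matrix proteins. Its log2 level was 11.70, 11.61, 11.64 and 11.61 in control samples 1 to 4 and 11.94, 11.88, 11.94 and 11.90 in jasplakinolide samples 1 to 4. All 4 jasplakinolide samples lay above all control samples, and the difference was alike within each replicate number, at 0.24, 0.27, 0.30 and 0.29. The mean went from 11.64 ± 0.04 to 11.92 ± 0.03 (SD, n = 4 each), a difference of 0.27 ± 0.04 (SE, 95% interval 0.18 to 0.37) or 1.21-fold, with a limma adjusted p of 0.0280 (0.0276 with the replicate block). The treatment held 94.4% of the sum of squares of its 8 values. The size held in all 20 alternatives, between 0.26 and 0.29, but the adjusted p did not: limma called it in 11 of the 20. Among the fits without 1 array, it stayed past the threshold without control 1 (adjusted p = 0.0457) and without control 2 (0.0497), and missed it without control 3 (0.0993), control 4 (0.123), jasplakinolide 1 (0.0994), jasplakinolide 2 (0.0762), jasplakinolide 3 (0.0877) or jasplakinolide 4 (0.0587). After median centring of each array it was 0.0956.

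None of the other 8 measured FACIT genes passed the test, and differences over the 9 ran from 0.00 to 0.27 with a median of 0.06. Col14a1, the relative of type XII in fibre surfaces of soft tissue, had 7.31, 7.53, 7.37 and 7.55 in the controls and 7.32, 7.48, 7.46 and 7.51 with jasplakinolide. All 4 jasplakinolide samples lay within the range of the controls, and the difference of 0.00 had a 95% interval of -0.15 to 0.16. The chains of type IX collagen, the FACIT of cartilage, showed 0.06 for Col9a1, 0.06 for Col9a2 and 0.08 for Col9a3, with limma adjusted p values of 0.939, 0.959 and 0.951. The remaining 4, Col16a1, Col19a1, Col20a1 and Col22a1, differed by 0.04, 0.09, 0.06 and 0.09.

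**Figure D2:**
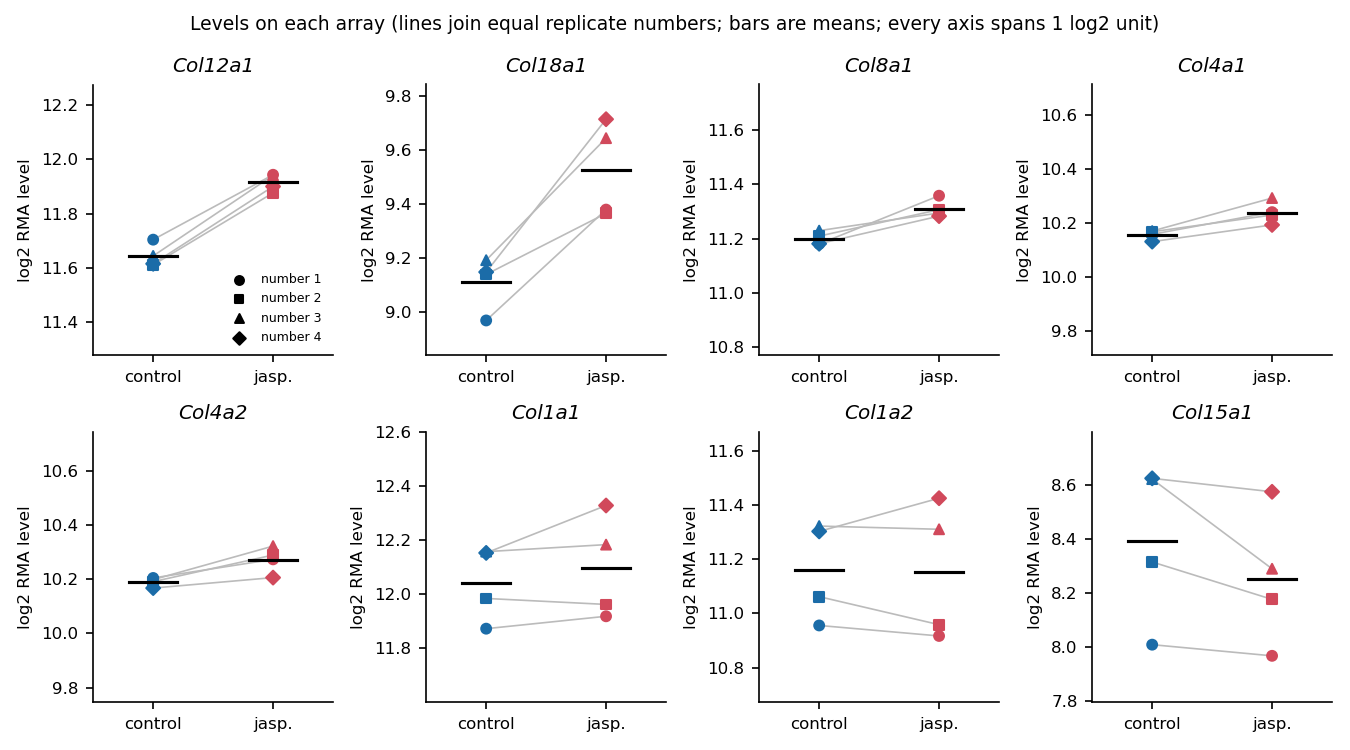
Log2 RMA levels on each array (y axis, spanning 1 log2 unit in every panel) in control and jasplakinolide samples (x axis) for 8 collagen genes; marker shapes and grey lines join equal replicate numbers, and black bars are group means. The groups are apart in Col12a1, Col18a1, Col8a1, Col4a1 and Col4a2, while in Col1a1, Col1a2 and Col15a1 the samples differ more between replicate numbers than between treatments.

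The multiplexins, types XV and XVIII, are proteoglycan collagens of basement membranes, and the C-terminal fragment of type XVIII is endostatin. Col18a1 had the largest difference of the family. Its level was 8.97, 9.14, 9.19 and 9.15 in the control samples and 9.38, 9.37, 9.64 and 9.71 in the jasplakinolide samples. The groups did not overlap, and the jasplakinolide samples were spread more widely. The mean was 9.11 ± 0.10 and 9.53 ± 0.18 (SD, n = 4 each), and the difference was 0.41 ± 0.09 (95% interval 0.21 to 0.61), or 1.33-fold. It missed the threshold in the fit without a block (limma adjusted p = 0.0867) and passed it with the replicate block (0.0345), where the differences by number were 0.41, 0.23, 0.45 and 0.56. Leaving out 1 array gave 0.35 to 0.47, and none of these 8 fits called it (adjusted p = 0.106 to 0.233).

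Col15a1, the other multiplexin, read 8.01, 8.31, 8.62 and 8.62 in the controls and 7.97, 8.18, 8.29 and 8.57 with jasplakinolide. The groups overlapped, and in each number the jasplakinolide sample was the lower one. The difference of -0.14 ± 0.16 (95% interval -0.50 to 0.22) had a limma adjusted p of 0.909. Its means by replicate number spanned 0.61, the widest of the 44 genes, and the replicate number held 86.4% of its sum of squares. The difference between Col15a1 and Col18a1 themselves was not tested.

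Type VIII collagen is a short-chain, network-forming collagen that vascular cells make, and Col8a1 encodes its alpha 1 chain. Col8a1 read 11.18, 11.21, 11.23 and 11.18 in the controls and 11.36, 11.31, 11.29 and 11.28 with jasplakinolide. The samples of each group lay close together and the groups did not overlap. The difference of 0.11 ± 0.04 (95% interval 0.02 to 0.20) had a limma adjusted p of 0.399 (0.247 with the block) and so was not called. Its partner chain gene Col8a2 read 6.52, 7.01, 6.68 and 6.91 against 6.85, 7.01, 6.81 and 7.04, with overlapping groups and a difference of 0.15 ± 0.11 (adjusted p = 0.801). Col10a1, the network collagen of hypertrophic cartilage, had the lowest difference of the family. It read 7.83, 8.08, 8.50 and 8.39 against 7.87, 7.85, 8.15 and 8.24, a difference of -0.17 ± 0.15 (95% interval -0.51 to 0.16) at a limma adjusted p of 0.860.

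Type IV collagen is the network of every basement membrane, and its 6 chain genes lie in 3 pairs, each head to head around a shared start region. None of the 6 passed the test in either fit. All 6 means were higher with jasplakinolide, by 0.02 to 0.14 with a median of 0.08, but for Col4a6 the sign turned when control 3 or jasplakinolide 4 was left out or the olfactory receptor signal was a covariate. Col4a1 and Col4a2, the chains found in nearly all basement membranes, had nearly the same values. Col4a1 read 10.16, 10.17, 10.17 and 10.13 in the controls and 10.24, 10.23, 10.29 and 10.19 with jasplakinolide. Col4a2 read 10.20, 10.19, 10.20 and 10.17, then 10.27, 10.29, 10.32 and 10.21. In both genes every jasplakinolide sample was above every control sample, and both differences were 0.08 ± 0.04, with intervals of -0.01 to 0.17 and -0.01 to 0.18 and limma adjusted p values of 0.646 and 0.659.

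In the other type IV pairs the differences of the paired genes lay farther apart. Col4a5 read 8.39, 8.35, 8.23 and 8.26 in the controls and 8.60, 8.53, 8.36 and 8.30 with jasplakinolide, and was higher in all 4 replicate numbers, by 0.21, 0.19, 0.13 and 0.04. Its difference was 0.14 ± 0.07 (95% interval -0.02 to 0.31, limma adjusted p = 0.665). Col4a6, whose RefSeq start lies 1274 bases from that of Col4a5 on chromosome X, read 6.96, 7.23, 6.77 and 6.99 against 6.95, 7.07, 6.82 and 7.19, a difference of 0.02 ± 0.10 (adjusted p = 0.979). Col4a3 and Col4a4, chains of the kidney and lung membranes, read 7.05, 7.39, 6.94 and 7.16 against 7.17, 7.34, 7.13 and 7.43, and 7.12, 7.37, 6.94 and 7.27 against 7.17, 7.32, 7.16 and 7.39. Their groups overlapped, with differences of 0.14 ± 0.10 and 0.09 ± 0.10 and limma adjusted p values of 0.814 and 0.908.

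The 11 fibrillar collagen genes held none past the test in either fit, with differences between -0.08 and 0.13 and a median of 0.06. Type I collagen, the main protein of the fibres of the arterial wall, has 2 chain genes. Col1a1 read 11.87, 11.98, 12.16 and 12.15 in the controls and 11.92, 11.96, 12.18 and 12.33 with jasplakinolide. Col1a2 read 10.96, 11.06, 11.32 and 11.30, then 10.92, 10.96, 11.31 and 11.43. In both chains the samples numbered 3 and 4 read higher than those numbered 1 and 2 in both groups, and the groups overlapped. The differences were 0.06 ± 0.10 (95% interval -0.17 to 0.28) for Col1a1 and -0.01 ± 0.13 (-0.30 to 0.28) for Col1a2, with limma adjusted p values of 0.951 and 0.996. The sign of both turned among the alternatives.

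Col3a1, the chain of type III collagen that makes the finer fibres of elastic vessels, read 8.50, 8.75, 8.80 and 8.81 against 8.61, 8.70, 8.99 and 9.08. Its difference of 0.13 ± 0.11 (95% interval -0.13 to 0.39, limma adjusted p = 0.868) was the highest of the fibrillar genes and within the spread of the samples. Type V collagen nucleates type I fibrils. Its chain Col5a2 read 10.99, 10.87, 10.83 and 10.83 against 10.94, 10.98, 10.88 and 10.74, a difference of 0.01 ± 0.06 (95% interval -0.14 to 0.15) whose sign also turned among the alternatives, while Col5a1 and Col5a3 differed by 0.10 and 0.07. Col2a1, the fibrillar collagen of cartilage, read 9.91, 10.08, 10.36 and 10.40 against 9.79, 9.91, 10.27 and 10.49, with a difference of -0.07 (95% interval -0.44 to 0.29). The samples numbered 3 and 4 again read highest in both groups, and the replicate number held 94.0% of its sum of squares.

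Type VI collagen forms beaded microfilaments next to basement membranes, and none of its 6 chain genes passed the test. Differences ran from -0.16 to 0.06 with a median of 0.02, and 3 of the 6 lay above 0. Col6a1 read 9.38, 9.54, 9.83 and 9.86 in the controls and 9.21, 9.31, 9.64 and 9.82 with jasplakinolide. It was lower with jasplakinolide in every replicate number, by -0.17, -0.23, -0.20 and -0.04. The difference of -0.16 ± 0.15 (95% interval -0.50 to 0.18) had a limma adjusted p of 0.884, and of 0.160 with the block. Col6a2, whose chain assembles with that of Col6a1, differed by -0.06 (adjusted p = 0.963), and Col6a3, the long chain of the same molecule, by 0.06 (0.929). Col6a5 and Col6a6 had a second probe set each, which differed by -0.04 and 0.09 where the one used gave 0.06 and -0.01.

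The 4 transmembrane collagens, type II membrane proteins with a collagenous outer part, differed by -0.02 (Col23a1) to 0.12 (Col25a1), with Col13a1 at 0.08 and Col17a1 at 0.05. Col7a1, the anchoring fibril collagen of skin, differed by 0.03, Col26a1 by 0.06 and Col28a1 by -0.04. None of these 7 passed the test in either fit. The 28 collagens that the rule for full description did not pick lay between -0.08 and 0.13, and their lowest limma adjusted p was 0.791.

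**Figure D3:**
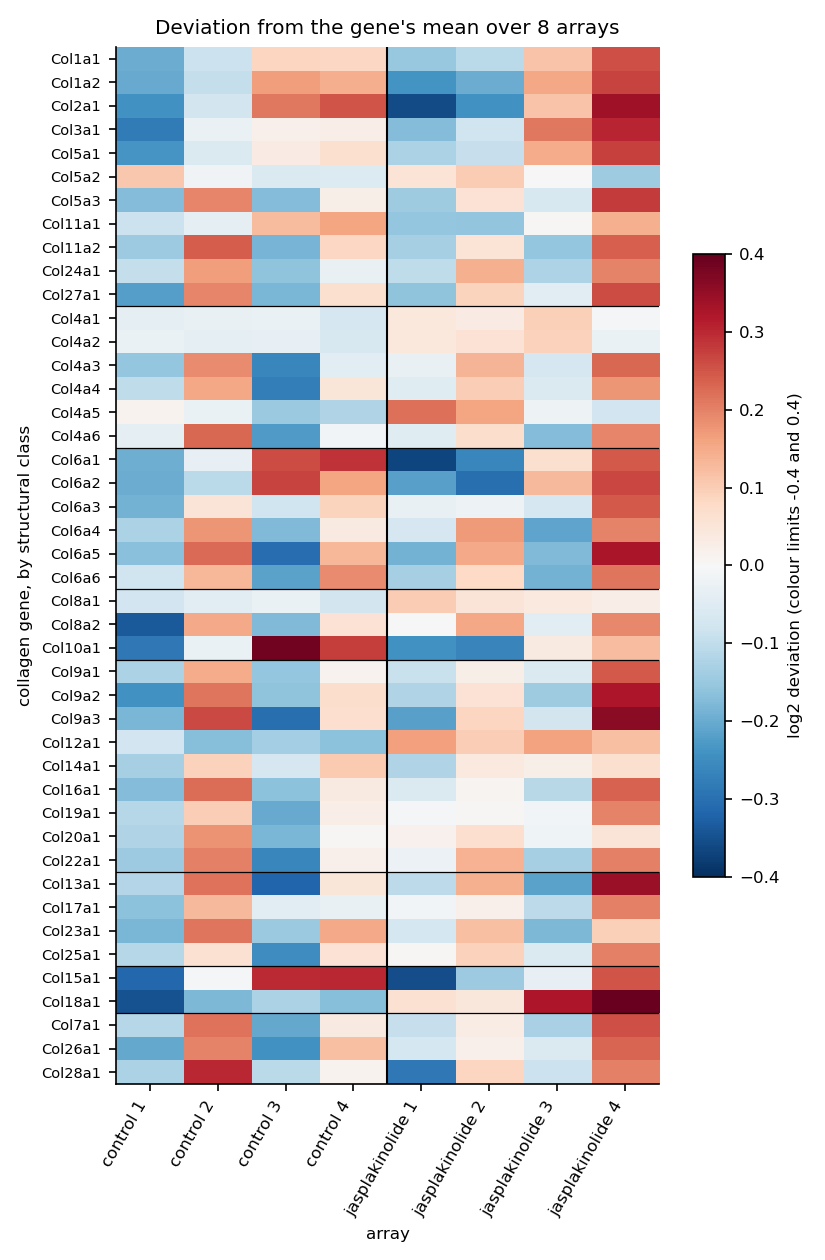
Deviation of each collagen gene from its mean over the 8 arrays (colour, log2, limits -0.4 and 0.4), with genes by structural class in the vertical direction and arrays along the horizontal axis. Whole columns share a colour across many genes, as in control 2 and jasplakinolide 4, which carry different replicate numbers. In most genes the mean square of the replicate number is above that of the treatment.

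For most collagens the replicate number held far more of the variation than the treatment. Its median share of the sum of squares was 78.0% over the 44 genes, beside 57.9% over all genes and 42.9% that its 3 of 7 degrees of freedom would give evenly. It was above 50% in 39 of the 44 (60.9% of all genes). The treatment's median share was 5.04%, beside 9.16% over all genes. Means by replicate number spanned a median of 0.33 in the collagens and 0.17 in all genes. The mean square of the replicate number was above that of the treatment in 38 of the 44 (64.7% of all genes) and at least 5 times as large in 22 (34.5% of all genes). An F test of the replicate number in the blocked limma fit gave an unadjusted p under 0.05 in 33 of the 44, or 75%, beside 22.5% of all genes, and no gene at all at an adjusted p under 0.05. This test was added after the data were seen, and genes that share array patterns do not count as separate results. The labels do not say what the replicate number stands for.

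**Figure D4:**
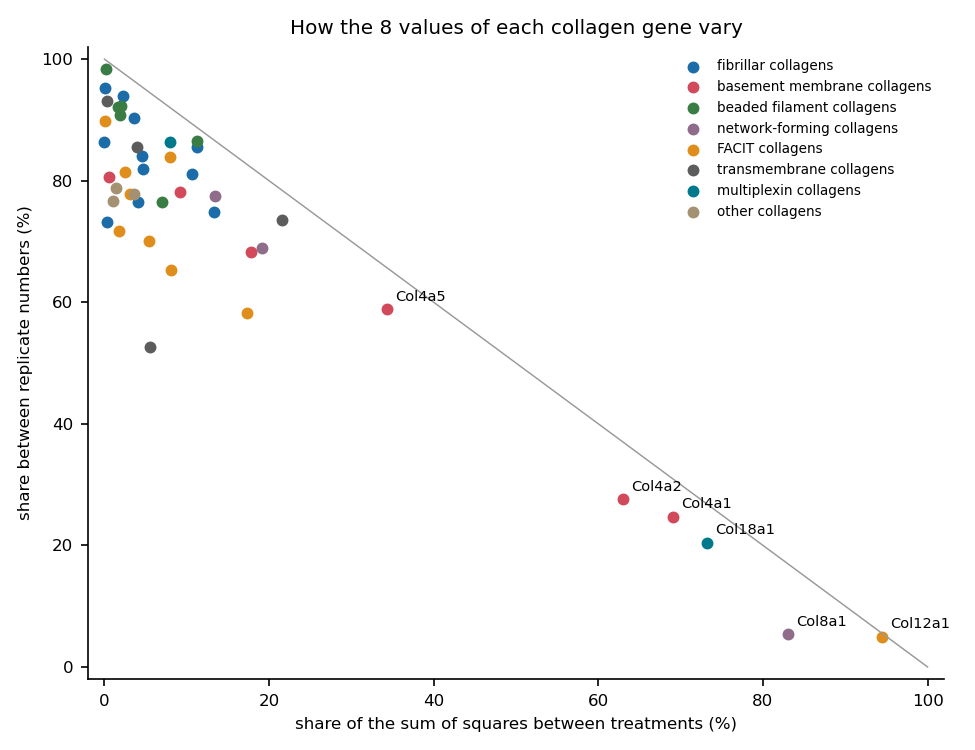
Share of each collagen gene's sum of squares over the 8 arrays that lies between the treatments (x axis, %) and between the replicate numbers (y axis, %), coloured by structural class; the grey line marks a sum of 100%. Most of the 44 genes stand at the upper left, and 5 named genes stand right of 50%, with Col12a1 at 94.4% and Col8a1 at 83.0%.

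The weaker collagen signals also shared an order of arrays. In 22 of the 44 genes control 2 was the highest control and jasplakinolide 4 the highest jasplakinolide sample (50%, beside 22.3% of all genes). This held for 16 of the 19 collagens among the dimmer 50% of all genes (84.2%, beside 40.5% of all genes there) and for 6 of the 25 in the brighter 50% (24%, beside 4.08%). The same 2 arrays had the highest median over 1027 olfactory receptor genes, taken here as a measure of weak background signal. It was 5.04 in control 2 and 5.05 in jasplakinolide 4, against 4.91 to 4.97 in the other 6. The part of this background in the collagen values was not tested. Col12a1, Col18a1, Col8a1, Col4a1 and Col4a2 did not show this order, but all of them lay in the brighter 50% of genes, where it is less common. With the olfactory median as a covariate the differences of Col12a1 and Col18a1 were 0.28 and 0.37 (limma adjusted p = 0.0226 and 0.0952). The median of the 44 collagens in that fit was -0.02.

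Genes that modify, export, cross-link, bind or degrade collagens were described by 8 lists, of which 90 of 96 genes were measured. By limma 2 of the 90 rose and none fell (2.22%, beside 0.772% of all genes in either direction). Tgm2 and Tgfb3 were the 2 that rose, and with the replicate block Dcn fell as well (3 of 90, or 3.33%, beside 1.89% of all genes). The lists are bright, with 69 of the 90 in the brighter 50% of all genes. Of all genes in that part, limma called 1.24%, or 3.09% with the block, which is close to the 3.33%. The median difference over the 90 was 0.01.

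Tgm2, transglutaminase 2, cross-links matrix proteins including collagens. It read 10.40, 10.51, 10.57 and 10.46 in the controls and 10.91, 10.90, 11.12 and 11.05 with jasplakinolide. The groups were well apart, and the difference was 0.51 ± 0.06 (95% interval 0.37 to 0.65), or 1.42-fold, with a limma adjusted p of 0.00819. All 8 fits without 1 array called it. None of the other 4 measured cross-linking genes passed.

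Tgfb3 encodes transforming growth factor beta 3, a ligand of the main pathway that raises collagen transcription. It read 10.65, 10.62, 10.79 and 10.69, then 11.25, 11.19, 11.48 and 11.65. The groups did not overlap, and the difference was 0.70 ± 0.10 (95% interval 0.48 to 0.92), or 1.63-fold, at a limma adjusted p of 0.0156. It lost the threshold without control 1 (0.0507), control 4 (0.0712) or jasplakinolide 3 (0.0673). None of the other 15 measured regulators passed, and their list had a median of 0.01.

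Dcn encodes decorin, a small proteoglycan that binds type I fibrils and limits their thickness. It read 12.50, 12.71, 13.00 and 12.94 in the controls and 12.09, 12.17, 12.47 and 12.27 with jasplakinolide. All jasplakinolide samples lay below all controls, though the lowest control and the highest jasplakinolide sample were close. The difference was -0.54 ± 0.12 (95% interval -0.81 to -0.27), with a limma adjusted p of 0.0916 without the block and 0.0134 with it. It also passed among the brighter 50% of genes (0.0470), under a robust prior with an intensity trend (0.0453) and under array weights (0.0126), and in none of the other alternatives. The list of 13 fibril-associated matrix proteins had a median of -0.06, with 10 of 13 below 0.

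The other lists held no gene past the test in either fit. Among 15 genes of collagen hydroxylation and glycosylation (median 0.02), Plod1, a lysyl hydroxylase, differed by 0.19 ± 0.06 (limma adjusted p = 0.328, 0.0645 with the block). P3h2, a prolyl 3-hydroxylase, differed by -0.42 ± 0.15 (0.351). Its value in jasplakinolide 4 lay far below the others of that group, and without this array the difference was -0.26. Among 11 genes of folding and export (median 0.04), Mia3, which loads procollagen into transport vesicles, differed by -0.10 ± 0.05 (0.592) and Fkbp14, a folding enzyme, by 0.12 ± 0.06 (0.665). Among 7 genes of procollagen processing (median 0.01), Adamts14 differed by 0.12 ± 0.04 (0.395) and Tll1 by 0.08 ± 0.06 (0.820). Among 10 collagen receptors (median 0.07), Itga1 and Itgb1, which pair as a receptor of type IV and type I collagen, differed by 0.22 ± 0.06 (0.202, 0.0595 with the block) and 0.10 ± 0.04 (0.505). Among 13 genes of degradation and its inhibitors (median -0.01), Reck, a membrane inhibitor of metalloproteinases, differed by -0.15 ± 0.05 (0.241) and Timp3, a matrix-bound one, by -0.22 ± 0.10 (0.592).

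**Figure D5:**
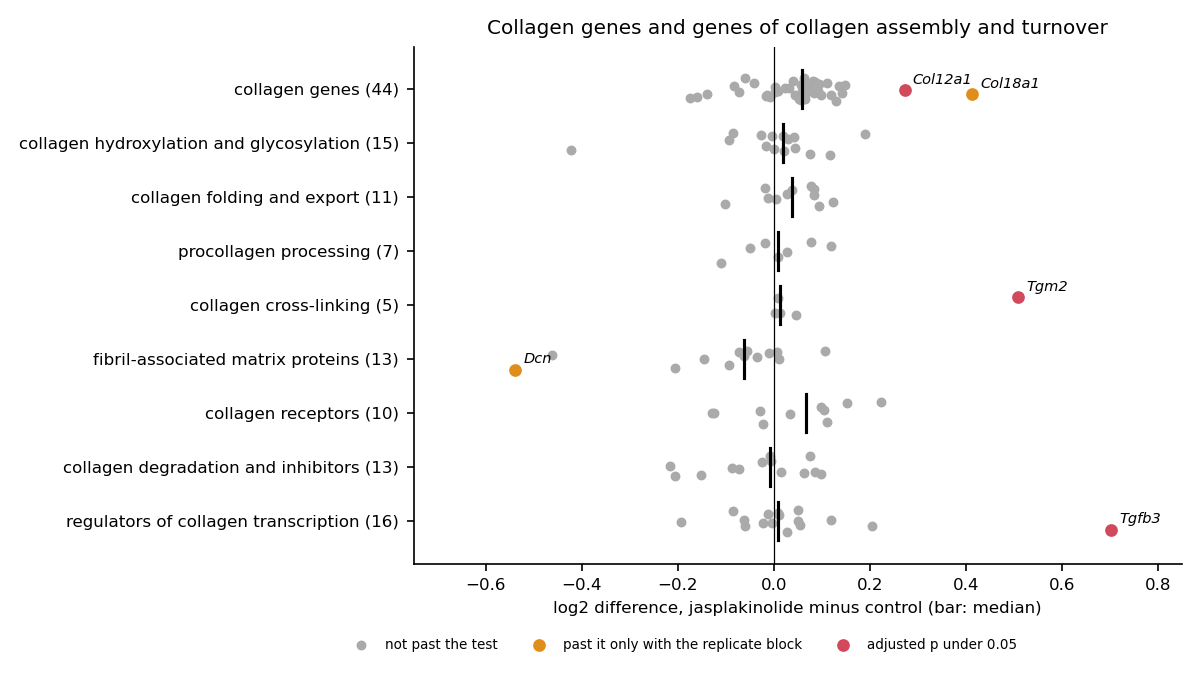
Log2 difference between jasplakinolide and control samples (x axis) for the 44 collagen genes and the measured members of 8 lists of collagen assembly and turnover (y axis, number of genes in brackets); black bars are medians, red marks a limma adjusted p under 0.05 and orange a gene past it only with the replicate block. The medians lie between -0.06 and 0.07, and Tgfb3, Tgm2 and Dcn stand farthest from 0.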

How the data were processed

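Gene expression in 8 samples was measured with Affymetrix arrays. The authors deposited log2 values, and the submitters' processing notes name RMA and Affymetrix Expression Console; no version is given in the sources used here. RMA gives all arrays one distribution of probe signals, so a shift shared by most genes would not show. Of 35556 probe sets, 21789 had 1 gene symbol in the platform annotation and were used, 1621 had several and 12146 none; 999 genes had more than 1 probe set. The test was limma 3.58.1 (lmFit and eBayes, two-sided, run in R 4.3.3) with 6 residual and 3.43 prior degrees of freedom and adjustment over 19938 genes. With 4 arrays in each group the precision is limited. The fits without and with the block were run on simulated data with independent noise in each gene and array. That noise held no effect of the replicate number, so the simulation cannot say whether the block is right for these data.

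The members and gene lists were chosen with earlier results of these data known. Described in full were collagens past the test in either fit, the 8 with the largest differences, the 6 with the highest mean and the head-to-head type IV pairs; from the other lists, genes past the test or else the 2 with the lowest p. Further collagens given array by array (Col14a1, Col3a1 and Col2a1) were chosen after their values were seen.

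Both groups use the same replicate numbers. Deviations from group means correlated at 0.24 to 0.56 in all 4 same-numbered pairs and at -0.62 to 0.52 between other arrays, and 6 of 8 arrays were closest to the one of their own number. Control 2 and jasplakinolide 4 instead matched each other best, at 0.52. Control 2 reached 0.24 with jasplakinolide 2, and jasplakinolide 4 reached 0.44 with control 4. Both arrays also had the highest olfactory receptor medians, and the part of that signal in these correlations was not tested. The numbers were still taken to pair the samples, from the data and not the labels. The calls of Col18a1 and Dcn with the replicate block rest on this choice. Alternatives were the replicate block, only the brighter 75% or 50% of genes, 3 other normalizations, a robust prior with an intensity trend, array weights, probe sets averaged by gene, an adjusted p under 0.01, and fits with arrays left out. An olfactory receptor covariate and the F test of the replicate number were added after seeing the data. Promoter windows come from RefSeq.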

Additional observations from a re-analysis of the deposited data

Results flagged for a closer look

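In 4 of 114 groups of 4 samples, over 57 genes, 1 array lay far from the other 3 of its group, and chance gives about 1 in 20. Col3a1 read 8.50 in control 1, against 8.75 in the nearest control. In jasplakinolide 4, Col6a3 read 7.76 against 7.49 in the nearest sample of its group, and Col19a1 read 7.01 against 6.81. P3h2 read 7.96 in jasplakinolide 4, against 8.52 in the nearest.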

How the results depend on the processing

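Of all genes, 154 passed limma's threshold, and 377 did with the replicate block, 296 among the brighter 50% of genes, 276 after quantile normalization, 299 after cyclic loess, 358 with an intensity trend and robust prior, 457 with array weights, 45 at an adjusted p under 0.01, and 43 to 150 without 1 array. The collagen count of 1 became 2 with the replicate block, among the brighter 50% and with the trend, the second gene being Col18a1 each time. It became 0 after median centring, at an adjusted p under 0.01 and without control 2 and jasplakinolide 4 together, and was 0 to 1 without 1 array. Of the assembly and turnover genes, 2 passed, 3 with the replicate block, among the brighter 50% and with the trend, 4 with array weights, 1 at an adjusted p under 0.01, and 1 to 2 without 1 array. Col1a1 turned to -0.075 with array weights and -0.040 without control 2 and jasplakinolide 4, and lay at -0.020 to 0.12 without 1 array. Without 1 array, Col1a2 lay at -0.10 to 0.071, Col5a2 at -0.024 to 0.058 and Col4a6 at -0.049 to 0.10, and Col4a6 was -0.057 with the olfactory covariate. The replicate block changed no call among the collagens and the assembly and turnover genes named other than those of Col18a1 and Dcn. The causes of these shifts were not tested. Some of the fits used fewer arrays or genes. The median difference of the collagens lay at -0.01 to 0.11 without 1 array.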
